A study of Mus musculus with 7 samples.

Results

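MOL1 was 1 of the 11 clusters into which the authors divided oligodendrocyte lineage cells (OLCs) of the adult mouse cortex. Its members were taken from the deposited annotation as every kept cell that carries this cluster name, which gave 369 of 9291 cells. The annotation holds 6 further mature clusters, MOL2a, MOL2b and MOL5/6a to MOL5/6d, with 7319 cells together, and these other mature oligodendrocytes serve as the comparison within each library. The name MOL1 was given by the authors by transfer of labels from a published atlas, after clustering on expression, so that the genes by which MOL1 stands apart from its neighbours had a part in choosing its cells. For this reason the values of MOL1 against other mature cells are descriptions, and no test of them is given.

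Droplet-based single-cell RNA-seq was performed on OLCs from microdissected motor and cingulate cortex of mice at P90 (11 to 14 weeks, C57BL/6-B6CBA background), which had been dissociated and sorted by fluorescence. All 3 libraries came from animals that carry Emx1-Cre, which is active in progenitors of the dorsal forebrain, and a dual Sox10 reporter that turns from GFP to TdTom where Cre has acted, so that colour marks dorsal (TdTom) or ventral (GFP) origin. Control dOLCs were TdTom+ cells of Emx1-Cre:Sox10-GFP-TdTom mice, control vOLCs were GFP+ cells of mice of the same genotype, and ectopic vOLCs were GFP+ cells of mice that also carry Sox10-GFP-DTA, in which diphtheria toxin fragment A removes the OLCs of dorsal origin. The region is the one the labels give, while the methods of the paper have the CC dissected from neocortices. The labels give 4 control and 2 ablated mice. Cells of these mice were pooled, which leaves 1 library for each condition and no replicate, and no p-value between conditions can be had. The control libraries are 2 colours of control mice and may come from the same animals, but which mice gave which cells is not known. Between ectopic vOLCs and either control, animal, library and condition cannot be told apart. Between the controls, library and origin cannot be told apart. A difference between conditions is given as a log2 ratio with its counting error.

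Mature oligodendrocytes are the myelin-forming end of the lineage, and their RNA is dominated by transcripts for myelin proteins such as Mbp and Mog. Immediate early genes, among them the AP-1 subunits Fos, Fosb, Jun and Junb and the zinc finger factor Egr1, are transcribed within minutes of many stimuli, without need for new protein. A second group acts as their brake, such as the MAP kinase phosphatase Dusp1 and the antiproliferative factor Btg2. Heat shock genes such as Hspa1a (HSP70) and its co-chaperone Dnajb1 encode chaperones and are switched on by unfolded protein through the factor HSF1. In brain tissue immediate early genes are best known from neurons that have fired, and in the oligodendrocyte lineage they are also read during the response of precursor cells to growth factors.

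The promoters of 5 genes that lead MOL1 are shown because these genes belong to both programmes, and the letters let a reader compare them. Each sequence covers 250 bases before to 50 bases after a transcription start in RefSeq (GRCm38.p6), read along the gene's strand. Fos lies at chr12:85473640-85473939 on the plus strand. Hspa1a lies at chr17:34972107-34972406, Dusp1 at chr17:26508423-26508722, Btg2 at chr1:134079106-134079405 and Jun at chr4:95052173-95052472, all on the minus strand. Capitals mark a match, searched on both strands, to the cAMP response element TGACGTCA or to a pair of inverted heat shock units, GAANNTTC or TTCNNGAA, and these motifs do not share letters.
Fos: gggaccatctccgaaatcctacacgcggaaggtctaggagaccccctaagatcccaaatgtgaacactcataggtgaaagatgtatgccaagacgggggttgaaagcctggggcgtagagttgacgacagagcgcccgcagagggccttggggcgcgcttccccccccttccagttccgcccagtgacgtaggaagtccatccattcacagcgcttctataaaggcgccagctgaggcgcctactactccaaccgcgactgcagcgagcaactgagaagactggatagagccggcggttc
Hspa1a: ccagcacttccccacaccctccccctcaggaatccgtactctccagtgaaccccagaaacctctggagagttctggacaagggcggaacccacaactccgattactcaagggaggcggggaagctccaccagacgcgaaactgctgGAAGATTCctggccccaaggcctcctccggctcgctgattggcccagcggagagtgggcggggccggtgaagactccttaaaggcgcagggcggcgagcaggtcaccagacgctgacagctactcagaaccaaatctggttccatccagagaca
Dusp1: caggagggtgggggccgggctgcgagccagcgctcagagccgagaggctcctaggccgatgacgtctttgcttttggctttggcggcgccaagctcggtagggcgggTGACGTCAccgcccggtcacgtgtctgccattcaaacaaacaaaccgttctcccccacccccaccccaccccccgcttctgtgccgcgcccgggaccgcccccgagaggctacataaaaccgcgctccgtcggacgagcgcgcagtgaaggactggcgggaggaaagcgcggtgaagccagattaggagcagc
Btg2: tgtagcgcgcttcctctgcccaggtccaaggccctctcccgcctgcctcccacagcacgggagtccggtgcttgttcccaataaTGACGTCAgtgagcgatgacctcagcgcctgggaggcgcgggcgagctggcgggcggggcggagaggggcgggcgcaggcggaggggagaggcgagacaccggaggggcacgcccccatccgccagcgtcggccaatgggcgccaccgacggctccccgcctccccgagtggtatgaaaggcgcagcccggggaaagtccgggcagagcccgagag
Jun: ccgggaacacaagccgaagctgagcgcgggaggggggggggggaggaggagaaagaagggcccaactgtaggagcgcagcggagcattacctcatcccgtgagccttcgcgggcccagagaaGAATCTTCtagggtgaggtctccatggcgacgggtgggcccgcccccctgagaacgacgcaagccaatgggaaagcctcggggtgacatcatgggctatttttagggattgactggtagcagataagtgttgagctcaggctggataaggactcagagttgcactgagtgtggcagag

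The Dusp1 and Btg2 windows held TGACGTCA, which starts at position -143 of Dusp1 and -166 of Btg2, counted from the transcription start. A heat shock pair started at -104 in Hspa1a and at -128 in Jun. The Fos window held neither, and no window of the 5 held the AP-1 site TGANTCA or the CArG box of serum response factor. Only exact letters within the window were searched. A site farther upstream or with a changed letter would be missed, so a gene without a match may still have such an element. Of the 15 genes that lead MOL1, 12 had a promoter in the table, and 2 of them held the cAMP response element, against 2.03% of 27025 genes with windows of the same length, where any start of a gene counts. A heat shock pair was found in 2 of these 12, against 17.0% of all genes, an AP-1 site in 0, against 8.97%, and a CArG box in 0, against 1.81%. Of 13 heat shock genes with a promoter, 10 held a heat shock pair and 2 an AP-1 site. Of 18 immediate early factors, 2 held a CArG box (Egr2 and Srf), 3 a heat shock pair (Jun, Fosl2 and Egr2) and 1 the cAMP response element (Maff). A match of letters is a description of the sequence and is not evidence that a factor binds there. No promoter was read for Gm26825, Fam46a and Phlda1 among the leading genes. The same holds for Egr1, Egr3, Ier2, Klf10, Fosl1 and Myc among the factors. Among heat shock genes it holds for Hspa8, Hsp90aa1, Hsp90ab1 and Cryab. Nothing is said here of the motifs of these genes.

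MOL1 cells were found in all 3 libraries. Control dOLCs held 242, which is 4.17% of the library (95% Clopper-Pearson interval 3.67 to 4.72%). Control vOLCs held 34 (3.68%, 2.56 to 5.10%) and ectopic vOLCs held 93 (3.63%, 2.94 to 4.43%). The intervals of the 3 shares overlapped, and the interval covers the counting of cells only. As a share of mature cells MOL1 made up 5.09%, 4.36% and 4.31%. Of 39 barcodes that occur in more than 1 library, 3 were a MOL1 cell in one of them and 0 were MOL1 in 2.

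The libraries differed in depth, and MOL1 was shallower than other mature cells in each of them. In control dOLCs the median MOL1 cell had 2983 UMIs against 3655.5 in other mature cells. The medians were 4304.5 against 5368.5 in control vOLCs and 5091 against 5670 in ectopic vOLCs. Low depth was not particular to MOL1, since MOL5/6b was shallower in each library, at 2844, 3970.5 and 3059. MOL2b was deeper, at 7168, 8776.5 and 8292. MOL1 held 863691, 158669 and 518237 UMIs in all, so that control vOLCs gave the least precise values. The median share of mitochondrial counts in MOL1 was 8.28%, 8.68% and 5.97%, against 6.88%, 6.86% and 6.32% in other mature cells, which was higher in both controls and lower in ectopic vOLCs. The mature clusters differed here too, with 8.67%, 8.23% and 10.5% in MOL5/6b and 3.66%, 4.18% and 4.02% in MOL2b. Of MOL1 cells, 7, 2 and 2 were among the 6% of barcodes with the highest doublet score of their library (2.89%, 5.88% and 2.15%), against 6.23%, 7.51% and 6.20% of other mature cells.

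The cells carried the defining genes of their label. Mog, a surface protein of the outermost myelin layer, had 2061, 2338 and 2497 counts per 1000000 UMIs (CPM) in MOL1 of control dOLCs, control vOLCs and ectopic vOLCs, against 440, 220 and 217 in oligodendrocyte precursor cells (OPCs) of the same libraries. Mbp, myelin basic protein, had 5943, 5704 and 6374 CPM in MOL1 and 1515, 849 and 831 in OPCs. In both genes MOL1 was close to other mature cells, with log2 ratios between -0.06 and -0.15 over the 3 libraries. Egr1 had 157, 158 and 100.3 CPM in MOL1 and 5.07, 2.89 and 3.38 in other mature cells. The earlier COP/NFOL/MFOLa cluster was at a like level, with 2482, 2467 and 2885 CPM of Mog and 6736, 5324 and 7591 CPM of Mbp. These 2 genes therefore set MOL1 apart from OPCs and do not mark a mature state alone. MOL1 held them together with Egr1 and Fos, which had a part in choosing its cells and cannot support the label.

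Fos, the partner of Jun in the AP-1 dimer, had the widest gap between MOL1 and its neighbours among genes past the filter. In MOL1 it had 917 CPM (control dOLCs), 1777 CPM (control vOLCs) and 999.5 CPM (ectopic vOLCs). Other mature cells had 28.2, 19.1 and 20.2 CPM. The log2 ratio was 5.02 (95% exact binomial interval 4.86 to 5.19), 6.54 (6.18 to 6.92) and 5.63 (5.41 to 5.85). These intervals, and all others of ratios here, cover the counting of UMIs only.

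Each of the 3 libraries gave the same order of clusters at the top for Fos, with MOL1 first and OPCs second. OPCs had 208, 177 and 303 CPM of Fos. The 6 other mature clusters lay between 3.74 and 40.5 CPM over all libraries. Hspa1a was also highest in MOL1, but there OPCs had only 30.1, 17.7 and 19.1 CPM against 17.4 to 68.6 in the 6 other mature clusters. OPCs lay below 5 of these 6 in control dOLCs and in ectopic vOLCs and below all 6 in control vOLCs.

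Hspa1a, the stress-inducible HSP70, had 1162, 1286 and 1209.9 CPM in MOL1 and 36.4, 35.5 and 28.9 in other mature cells. Its log2 ratio was 5.00 (4.85 to 5.14), 5.18 (4.87 to 5.50) and 5.39 (5.19 to 5.58), a narrower range over libraries than that of Fos. Hspa1b, a near-identical copy, had 89.2, 31.5 and 34.7 CPM in MOL1 and 6.37, 6.03 and 2.56 in other mature cells. Reads of the 2 copies may have been split or dropped in counting, and the level of each alone is uncertain.

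**Figure D1:**
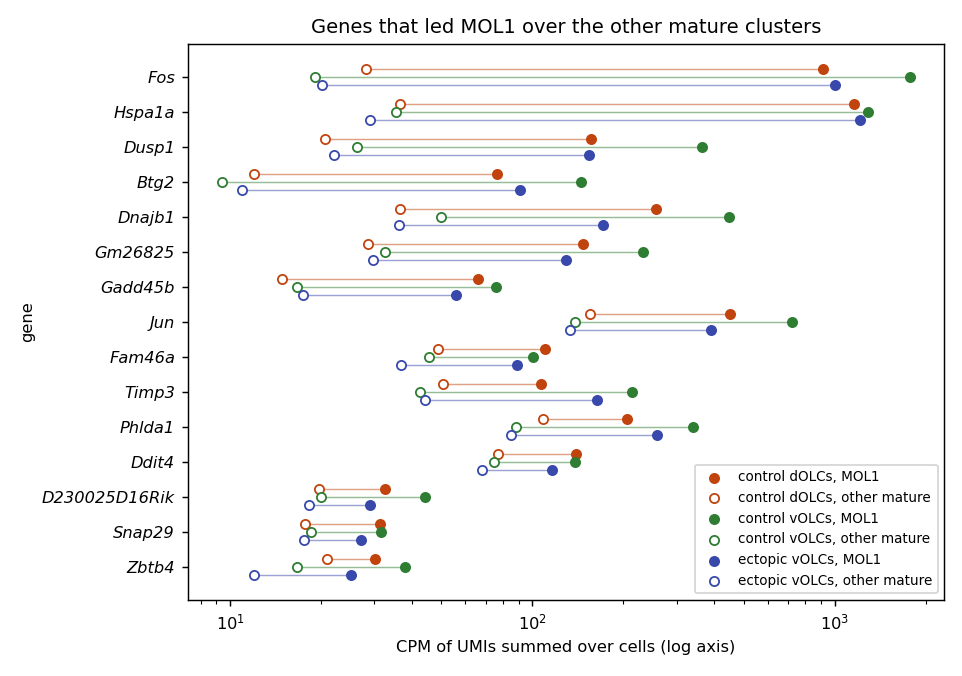
Levels in CPM, on a log axis, of the 15 genes that lead MOL1, with filled points for MOL1 and open points for other mature oligodendrocytes of each of the 3 libraries, coloured by library. Each point is the UMIs of 1 gene summed over cells. Fos and Hspa1a stand between 917 and 1777 CPM in MOL1 and below 37 CPM in other mature cells.

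Over the whole table few genes shared this pattern. Of 4556 genes with at least 50 UMIs summed over MOL1 and other mature cells, and seen in 10% or more of the cells of either, in each library, 10 were at least 2-fold higher in MOL1 in all 3 libraries (0.219%). They were Fos, Hspa1a, Dusp1, Btg2, Dnajb1, Gm26825, Gadd45b, Jun, Fam46a and Timp3. Against MOL5/6 clusters only, Fam46a and Timp3 fell out and 8 of 4436 were left. One gene, the myelin-associated protease Klk6, was at least 2-fold lower in all 3 (0.0219%). The count of lower genes was 0 against MOL5/6 only, 10 without control dOLCs and 2 without control vOLCs. A gene may pass the filter through MOL1 alone, as Fos does, which was seen in under 10% of other mature cells in each library. No test stands behind these counts, since the clusters were made from the same genes.

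The feedback genes Dusp1 and Btg2 followed the AP-1 subunits. Dusp1 had 156, 366 and 154 CPM in MOL1 against 20.7, 26.3 and 22.1 in other mature cells, a log2 ratio of 2.92 (2.62 to 3.21), 3.80 (3.31 to 4.27) and 2.80 (2.43 to 3.17). Btg2 had 76.4, 145 and 90.7 CPM against 12.0, 9.41 and 11.0, a ratio of 2.67, 3.95 and 3.05. These are the 2 genes above whose promoter holds TGACGTCA. Gadd45b, a growth arrest and DNA damage protein, had 66.0, 75.6 and 56.0 CPM, with ratios of 2.15, 2.18 and 1.68.

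Jun was already present in other mature cells, at 155, 138 and 133 CPM. In MOL1 it had 449, 725 and 389.8 CPM, which gave log2 ratios of 1.54 (1.38 to 1.69), 2.39 (2.09 to 2.68) and 1.55 (1.33 to 1.76). Jund, the AP-1 subunit that many resting cells keep, differed less, by 0.49, 0.33 and 0.30. Its level in MOL1 was 890, 681 and 672 CPM.

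Several immediate early factors did not pass the filter in every library. Egr1, Junb, Ier2 and Klf4 missed it in the small library of control vOLCs alone, and without that library they are among 14 genes at least 2-fold higher. Fosb had 122, 75.6 and 25.1 CPM in MOL1 against 1.67, 0.482 and 0.495, with log2 ratios of 6.18 (5.59 to 6.81), 7.29 (5.13 to 10.49) and 5.66 (4.17 to 7.35). In other mature cells of control vOLCs this rests on 2 UMIs and in ectopic vOLCs on 6. Junb had 113, 139 and 151 CPM in MOL1, with ratios of 3.63, 5.36 and 4.86.

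Egr1 had log2 ratios of 4.96 (4.57 to 5.35), 5.77 (4.72 to 6.89) and 4.89 (4.27 to 5.52). Ier2 had 67.2, 139 and 57.9 CPM in MOL1, with ratios of 3.08, 4.64 and 3.62. Klf4, a Krüppel-like factor, had 57.9, 101 and 38.6 CPM, with ratios of 4.07, 5.01 and 3.83. Klf10 (1.66, 2.58 and 2.49), Zfp36 (1.54, 2.58 and 1.62) and Gadd45g (2.59, 2.71 and 2.81) lay on the same side in all 3 libraries. Nr4a1, an orphan nuclear receptor, was nearer, at 0.84, 1.85 and 0.85.

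Not every gene of the programme stood out. Egr3, Egr4, Fosl1 and Myc, and the targets Cyr61 and Ctgf, were at 0 UMIs in MOL1 of all 3 libraries. In other mature cells they were also at 0 or at most 1.78 CPM, so they were too rare to show a difference. Rhob, a small GTPase, had 768, 807 and 714 CPM in MOL1 and log2 ratios of -0.09, -0.06 and -0.08. Sgk1, a kinase induced by glucocorticoids and osmotic stress, had ratios of 0.00 and 0.21 in the controls and -0.59 in ectopic vOLCs. Arc, known from active synapses, had 48.6, 94.5 and 71.4 CPM in MOL1 and ratios of 0.52, 1.27 and 1.07. Klf6 was at least 2-fold higher in control dOLCs (1.05) and not in control vOLCs (-0.23) or ectopic vOLCs (0.35).

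By summed level the transcription factors differed more than the feedback genes, whose sum holds abundant genes with ratios near 0 such as Rhob. The 24 immediate early factors summed to 2968, 3977 and 2582 CPM in MOL1 against 930, 793 and 785 in other mature cells, a log2 ratio of 1.67 (1.61 to 1.73), 2.33 and 1.72 (1.63 to 1.80). Of the 24, 4 passed the filter in every library, and 3, 2 and 2 of these were at least 2-fold higher. The 24 feedback genes and targets differed by 0.25 (0.17 to 0.32), 0.55 (0.40 to 0.70) and 0.13 (0.03 to 0.23), and of 13 past the filter 3, 4 and 4 were at least 2-fold higher. Over all genes past the filter 0.241%, 1.47% and 0.505% were 2-fold higher in the same library, 11, 67 and 23 of 4556. The median over all 4556 genes was -0.05, -0.12 and -0.03.

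**Figure D2:**
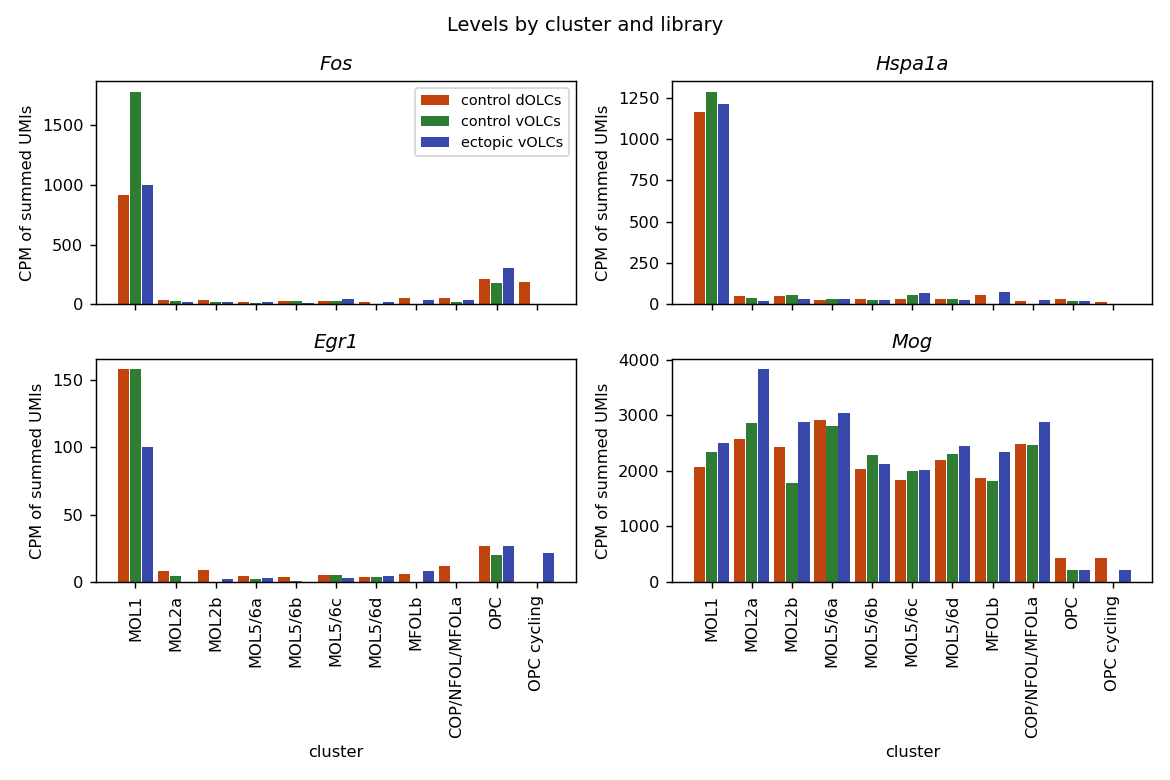
Bars give the level in CPM of Fos, Hspa1a, Egr1 and Mog in each of the 11 clusters, with 1 bar for each library and each axis starting at 0. MOL1 is highest for Fos, Hspa1a and Egr1 in all 3 libraries, OPCs are second for Fos, and Mog in MOL1 is within the range of the other mature clusters.

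The heat shock genes differed widely. Of 17 genes, 13 passed the filter and 2 of them, Hspa1a and Dnajb1, were at least 2-fold higher in all 3 libraries. Dnajb1, the HSP40 co-chaperone, had 257, 447 and 172 CPM in MOL1 and 36.4, 49.9 and 36.3 in other mature cells, with log2 ratios of 2.82 (2.59 to 3.04), 3.16 (2.75 to 3.56) and 2.24 (1.90 to 2.57). Hsph1, a large co-chaperone of HSP70, was at 0.75 (0.36 to 1.11), 0.77 (-0.21 to 1.61) and 0.28 (-0.50 to 0.96), and Dnajb4 at 0.46, -0.36 and 0.36.

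The abundant chaperones were close to the level of other mature cells. Cryab, the small heat shock protein that oligodendrocytes hold at high level, had 6050, 5710 and 6628 CPM in MOL1, with log2 ratios of -0.10, -0.08 and 0.03. Hsp90aa1 was slightly higher in each library (0.25, 0.32 and 0.27), and Hspa8 (0.06, 0.10 and -0.04) and Hsp90ab1 (0.06, -0.01 and 0.04) were near 0. The whole list summed to 0.16 (0.14 to 0.19), 0.20 (0.14 to 0.26) and 0.20 (0.17 to 0.23), and its median gene was at 0.11, -0.01 and 0.04. The stress response list, with 12 other genes, summed to 0.15, 0.15 and 0.16, and each of its 3 intervals included 0. Of its 5 genes past the filter 0 were past 2-fold. Its member Ddit4, an inhibitor of mTOR signalling, was higher in each library, with ratios of 0.85 (0.57 to 1.12), 0.90 (0.20 to 1.52) and 0.77 (0.37 to 1.15). The p53 target list, with 8 genes, summed to -0.06, -0.32 and 0.08, and its 3 intervals also included 0.

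The myelin programme was at nearly the same level as in other mature cells. The 20 myelin genes, all past the filter, summed in MOL1 to 71383 (control dOLCs), 76940 (control vOLCs) and 78925 CPM (ectopic vOLCs). The log2 ratio was -0.08 (-0.09 to -0.07), -0.11 (-0.13 to -0.08) and -0.07 (-0.09 to -0.06), and 0 of 20 genes were past 2-fold in any library. The 12 lineage factors, with Sox10, Olig1, Olig2 and Nkx6-2, summed to -0.06, -0.12 and -0.05. Of these Olig2, a factor of lineage specification, had ratios of -0.39 (-0.59 to -0.19), -0.14 (-0.56 to 0.26) and -0.53 (-0.81 to -0.27). The list went both ways, with 4, 2 and 5 of the 9 members past the filter above 0 and a median of -0.02, -0.25 and 0.01.

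Lipid genes did not set MOL1 apart by size. The 17 genes of cholesterol synthesis summed to 0.02, 0.06 and 0.02, and the 19 of fatty acid and sphingolipid synthesis to 0.07, 0.04 and 0.01. Genes that mark MOL5/6 summed to -0.04, 0.19 and 0.01, and genes that mark MOL2 to -0.36, -1.18 and -1.04. The comparison cells include the MOL2 clusters, and in control dOLCs 2 of the 3 MOL2 markers past the filter were above 0, with a median of 0.02. Among the latter Klk6 had 47.5, 176 and 36.7 CPM in MOL1, against 546, 1451 and 1412 in MOL2a.

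Against MOL5/6 clusters only, Klk6 turned from lower in MOL1 to higher, with log2 ratios of 1.18, 1.65 and 0.54 in place of -1.10, -1.36 and -1.65. The other 9 genes of the 10 lowest, which include AI987944, Xpnpep1 and Uba3, rested on between 2 and 34 UMIs in MOL1 of a library. Their ratios lay between -2.08 and -0.55. Transcripts of the 13 mitochondrial genes summed to 0.21, 0.29 and 0.00, and the nuclear long non-coding RNA Malat1 made up 106066, 99427 and 102397 CPM of MOL1 against 90355, 83098 and 93827 of other mature cells. Malat1 was thus higher in MOL1 in all 3 libraries and mitochondrial transcripts in both controls, and their part in the other values was not tested.

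Markers of other cell types were as low in MOL1 as in other mature cells. Of 10 microglia markers, 5 were at 0 in MOL1 of all 3 libraries (Cx3cr1, Csf1r, C1qa, C1qc and Tmem119), and the list summed to 33.6, 44.1 and 25.1 CPM against 34.8, 37.6 and 31.3. All 5 mural markers were at 0. Of 6 endothelial markers, Cldn5, Flt1 and Slco1a4 were at 0, and the list had 5.79, 6.30 and 3.86 CPM. Of 8 neuron markers, Rbfox3 and Slc17a7 were at 0, and the list had 17.4, 18.9 and 9.65 CPM against 17.3, 12.1 and 14.9.

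The 8 astrocyte markers had 263, 227 and 257 CPM in MOL1 against 266, 250.1 and 231, led by Aldoc. The 7 OPC markers had 141, 56.7 and 54.0 CPM against 129, 71.4 and 60.1, led by Ptprz1. In no list was the summed level in MOL1 past 2-fold of that in other mature cells in either direction, except for the mural markers, which are at 0 in MOL1 and at most 0.594 CPM elsewhere. Of the 7 OPC markers only 1 passed the filter, and a link between these levels and Fos was not tested.

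Per cell, neither Fos nor Hspa1a alone was detected in all MOL1 cells. The share that sampling of a uniform level would give was not worked out, so graded and uniform levels cannot be told apart here. A Fos UMI was found in 63.6% of MOL1 cells of the control dOLC library, 73.5% of the control vOLC library and 82.8% of the ectopic vOLC library. In other mature cells, which have more UMIs per cell in each library, the shares were 8.65%, 7.24% and 8.53%. With every cell thinned to 1000 UMIs (0 cells were left out) the shares were 46.7%, 55.9% and 55.9% in MOL1 and 2.64%, 2.01% and 1.55% in other mature cells.

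Hspa1a was seen in 83.1%, 82.4% and 78.5% of MOL1 cells, or 54.5%, 67.6% and 62.4% after thinning. For Fos the order of the libraries held after thinning apart from a tie of both vOLC libraries, and for Hspa1a control dOLCs went from the highest share to the lowest. Other mature cells had 10.5%, 11.5% and 11.2%, or 3.41%, 2.41% and 2.76% after thinning. Egr1 was seen in 29.8%, 38.2% and 33.3% of MOL1 cells and in 1.84%, 1.61% and 1.75% of other mature cells. After thinning the Egr1 shares of MOL1 were 11.2%, 11.8% and 8.60%. OPCs, with median depths of 2795, 3454 and 3421.5 UMIs, had an Hspa1a UMI in 5.98%, 5.79% and 4.55% of cells.

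A few cells held much of the RNA. The tenth of MOL1 cells with most Fos UMIs held 46.3%, 45.0% and 33.4% of all Fos UMIs of MOL1, and for Hspa1a the shares were 33.0%, 36.8% and 29.5%. Per 1000 UMIs, the 24 immediate early factors had a median of 2.35, 2.75 and 2.35 over MOL1 cells, with a range from 0 to 16.0 in control dOLCs, 0.236 to 14.0 in control vOLCs and 0.476 to 10.0 in ectopic vOLCs. Other mature cells had medians of 0.832, 0.724 and 0.705.

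The 2 groups of cells overlapped in this measure. In control dOLCs 94 other mature cells (2.08%) lay at or above the MOL1 median, in control vOLCs 4 (0.536%) and in ectopic vOLCs 7 (0.339%). In the other direction, 3 MOL1 cells of control dOLCs had no UMI of any of the 24 factors. These genes helped to define the cluster and are sparse in single cells, so the overlap describes how its cells were drawn and is no measure of how sharp the class is.

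Taken over both genes, each of the 369 MOL1 cells had a UMI of Fos or of Hspa1a. For the 0 of 369 cells with neither, the Clopper-Pearson interval of the share reached up to 0.995%, counting error only. In other mature cells 17.7%, 17.7% and 18.8% had a UMI of either, and in OPCs 18.3%, 10.7% and 20.0%. At 1000 UMIs per cell 50 MOL1 cells (20.7%), 3 (8.82%) and 14 (15.1%) had neither in control dOLCs, control vOLCs and ectopic vOLCs. Since both genes helped to define the cluster, this describes how its cells were drawn together.

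Not all MOL1 cells had a UMI of both. Both transcripts were seen in 113, 19 and 57 cells (46.7%, 55.9% and 61.3%). Fos without Hspa1a was seen in 41, 6 and 20 cells, and Hspa1a without Fos in 88, 9 and 16 cells (36.4%, 26.5% and 17.2%). Which of the 3 a cell falls into depends in part on its depth, so the split is a description.

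MOL1 cells with Hspa1a and no Fos UMI had less of the other immediate early genes. The 23 factors other than Fos summed to 1295 CPM in these cells of control dOLCs, against 2648 in cells with Fos only and 2438 in cells with both. In control vOLCs the values were 1007, 2008 and 2709, and in ectopic vOLCs 1333, 1557 and 1651. Other mature cells with neither transcript had 882, 729 and 739.7. Hspa1a-only cells lay between the Fos-bearing MOL1 cells and other mature cells in all 3 libraries. Since every MOL1 cell has a UMI of Fos or Hspa1a, and the split is made on these genes, this order of genes that go with Fos follows in part from the choice of cells and supports nothing. The intervals cover the counting of UMIs and not the spread between cells. In ectopic vOLCs the interval of Hspa1a-only cells (1098 to 1604) overlapped those of both groups with Fos.

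Egr1 and Dusp1 showed the same order. Egr1 had 28.6 CPM in Hspa1a-only cells of control dOLCs against 272 with Fos only and 219.9 with both. In control vOLCs it had 91.6, 167 and 178 CPM, and in ectopic vOLCs 35.7, 115 and 112. Dusp1 had 44.4, 322 and 192 CPM in control dOLCs, 122, 391 and 444 in control vOLCs and 59.5, 136 and 183 in ectopic vOLCs. Each was lowest in Hspa1a-only cells in every library. In control dOLCs their intervals were clear of those of cells with Fos, while for Egr1 they overlapped in control vOLCs and ectopic vOLCs, with 9 and 16 such cells. For Dusp1 they overlapped in these libraries with those of Fos-only cells and not with those of cells with both.

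The co-chaperone Dnajb1 was also lowest in Hspa1a-only cells. It had 79.3 CPM in Hspa1a-only cells of control dOLCs, 329.96 with Fos only and 367 with both. In control vOLCs the values were 122, 139 and 688, and in ectopic vOLCs 47.6, 105 and 222. Cells with both transcripts had the highest Dnajb1 in each library, but in control dOLCs their interval (312 to 429) overlapped that of Fos-only cells (236 to 449). The intervals of Fos-only and Hspa1a-only cells overlapped in both vOLC libraries. Myelin genes, by contrast, lay between 69109 and 82903 CPM in all 9 groups of MOL1 cells, with no common order over the libraries.

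**Figure D3:**
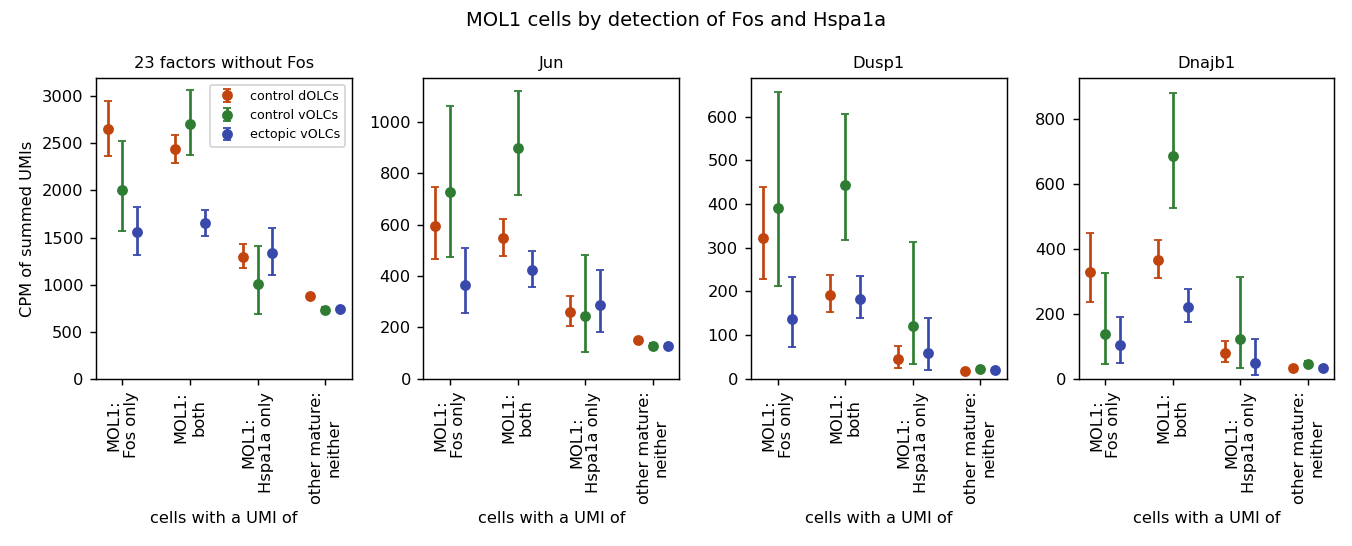
Level in CPM of the 23 immediate early factors other than Fos and of Jun, Dusp1 and Dnajb1 in MOL1 cells with a UMI of Fos only, of both Fos and Hspa1a, or of Hspa1a only, and in other mature cells with neither, for each library. Bars are 95% intervals of the count, and cells with Hspa1a only have the lowest point of the 3 MOL1 groups for each of these in all 3 libraries.

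The nearest neighbours of MOL1 cells were described with and without immediate early and heat shock genes. MOL1 was drawn by clustering these same cells on expression. A share of MOL1 neighbours above its share of the library therefore follows in part from that choice. It cannot tell whether the cells resemble each other beyond these genes. For each cell the 15 most similar cells of its library were found from 30 principal components. With all genes, 17.8% of the neighbours of MOL1 cells were MOL1 in control dOLCs (16.5 to 19.1%), 17.1% in control vOLCs (13.9 to 20.6%) and 12.2% in ectopic vOLCs (10.5 to 14.0%). That is 4.26, 4.64 and 3.36 times the share of MOL1 in the library. The intervals treat neighbours as independent draws, which they are not, and are too narrow.

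With the 65 immediate early and heat shock genes left out the share dropped to 11.2%, 10.2% and 8.53%, or 2.69, 2.77 and 2.35 times the share in the library. MOL1 stands apart by genes of these lists, so a drop was built into the choice of genes. The leading genes of other clusters were not left out in the same way, so the drop is a description. Leaving out the other leading genes too gave 11.1%, 9.41% and 8.32%. MOL1 cells with no MOL1 neighbour at all numbered 52, 6 and 23 with all genes and 67, 10 and 29 without the lists. Thinned to 1000 UMIs, the shares were 7.99%, 8.82% and 5.81% with all genes and 6.94%, 7.25% and 5.73% without the lists. Thinning takes information from every cell, and it was not run for the other clusters, so the lower shares cannot be read as an effect of depth.

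The own share of neighbours of the other mature clusters was between 53.7 and 95.3% with all genes, except for MOL2b of control vOLCs, with 6 cells (18.9%), and for MOL5/6b (30.0%) and MOL5/6c (44.1%) of ectopic vOLCs. Leaving out the lists moved these values little: MOL2a of control dOLCs went from 66.4 to 66.7% and MOL5/6b of control dOLCs from 84.8 to 83.3%. Among mature clusters MOL1 had the lowest own share in each library, with and without these genes, but an own share grows with the size of a cluster. As a multiple of its share of the library, MOL1 lay above several clusters that fill much of a library, such as MOL5/6b of control dOLCs (2.53), MOL5/6b of control vOLCs (2.65) and MOL5/6a of ectopic vOLCs (2.71). An own share cannot exceed 100%, so the multiple of a large cluster is capped at a low value. This order therefore follows from cluster size and is no result. The clusters that make up less than 10% of a library, as MOL1 does, had 7.74 to 29.1 times their share. Without the lists MOL5/6b was at 2.48 in control dOLCs and 2.61 in control vOLCs, and MOL5/6a of ectopic vOLCs at 2.69. The same cap applies to these values, so their order beside MOL1 is no result either.

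**Figure D4:**
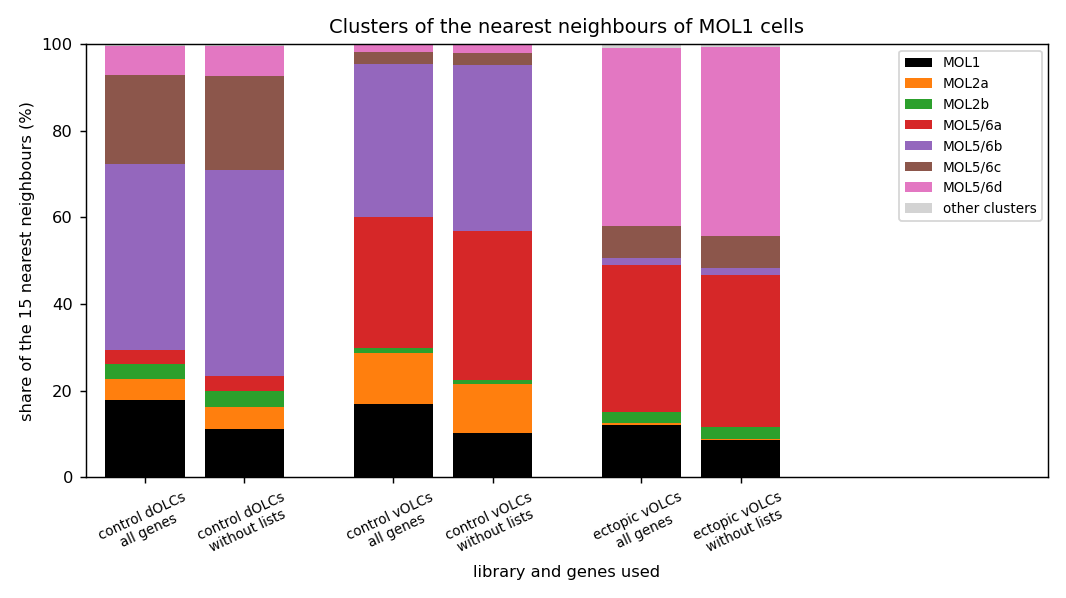
Stacked bars give the percent of the 15 nearest neighbours of MOL1 cells that fall in each cluster, in each library, with all genes and without immediate early and heat shock genes. The black part, MOL1 itself, is 12.2 to 17.8% with all genes and 8.53 to 11.2% without these genes, and MOL5/6 clusters fill most of the rest.

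Without the lists most neighbours of MOL1 cells were MOL5/6. In control dOLCs 47.7% were MOL5/6b and 21.7% MOL5/6c, clusters that make up 33.5% and 16.0% of that library. In control vOLCs 38.2% were MOL5/6b and 34.3% MOL5/6a, which make up 25.5% and 25.6%, and 11.4% were MOL2a, which makes up 19.4%. In ectopic vOLCs 43.4% were MOL5/6d and 35.1% MOL5/6a, which make up 32.7% and 35.1%. MOL5/6c, which makes up 2.46% of ectopic vOLCs, gave 7.38% of the neighbours there. MOL2a was under its share in each library, with 5.10% against 8.58% in control dOLCs and 0.430% against 4.49% in ectopic vOLCs.

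The design asks whether cells of ventral origin that fill the place of ablated dorsal cells differ from either control, and within MOL1 this can be read as ratios of single libraries. The 3 comparisons share libraries and are not independent of each other. Ectopic vOLCs against control dOLCs gave 3519 genes past the filter, of which 18 were at least 2-fold higher (0.512%) and 143 at least 2-fold lower (4.06%). With TMM scaling these counts were 27 and 107, and with median of ratios scaling 32 and 90. Against control vOLCs, with 1889 genes, 75 were higher (3.97%) and 38 lower (2.01%). Control vOLCs against control dOLCs, with 2840 genes, had 40 higher (1.41%) and 158 lower (5.56%), of which the lowest rest on 1 UMI each in the 34 cells of control vOLCs.

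The genes that mark MOL1 did not have 1 order over the conditions. Fos was highest in control vOLCs, with a log2 ratio of 0.95 (0.75 to 1.15) to control dOLCs, and ectopic vOLCs differed from control dOLCs by 0.12 (-0.04 to 0.29) and from control vOLCs by -0.83 (-1.04 to -0.62). In other mature cells the same 3 ratios of Fos were -0.56, -0.48 and 0.08. Hspa1a was nearly level in MOL1, at 0.06 (-0.09 to 0.20) relative to control dOLCs and -0.09 (-0.32 to 0.15) relative to control vOLCs. Egr1 in ectopic vOLCs was at -0.65 to either control, with an interval that leaves out 0 against control dOLCs (-1.14 to -0.18) and not against control vOLCs (-1.37 to 0.10).

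Fosb, with 122, 75.6 and 25.1 CPM, had the ratio farthest from 0 among the factors past the filter between ectopic vOLCs and control dOLCs. Its log2 ratio in ectopic vOLCs was -2.28 (-3.23 to -1.44) to control dOLCs and -1.59 (-2.84 to -0.33) to control vOLCs, where its 25 UMIs are under the filter. In other mature cells, where Fosb is hardly seen, the ratio to control dOLCs was -1.76. Junb did not share this, with 0.41 (-0.04 to 0.85) and 0.12 (-0.58 to 0.87).

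Dusp1 and Jun followed Fos in being highest in control vOLCs. Dusp1 in ectopic vOLCs was at -0.02 (-0.44 to 0.39) to control dOLCs and at -1.24 (-1.75 to -0.73) to control vOLCs. Jun was at -0.20 (-0.46 to 0.04) and -0.89 (-1.23 to -0.55). Dnajb1 was lower in ectopic vOLCs than in either control, with ratios of -0.58 (-0.95 to -0.22) and -1.38 (-1.85 to -0.91).

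Over the list of 24 factors, ectopic vOLCs were at -0.20 (-0.30 to -0.10) to control dOLCs and -0.62 (-0.76 to -0.48) to control vOLCs, and control vOLCs were at 0.42 (0.29 to 0.55) to control dOLCs. In other mature cells the same sums were -0.24, -0.01 and -0.23. The heat shock list was level by its sum, at -0.02 (-0.06 to 0.02) and -0.0011 (-0.07 to 0.06), which abundant members lead. Of its members past the filter 10 of 14 and 6 of 10 were below 0, with medians of -0.15 and -0.08. At least 2-fold lower were 2 and 1 of them, beside 4.06% and 2.01% of all genes. MOL1 of control vOLCs, with 34 cells, had the highest sum of immediate early factors. With every cell weighted alike the gap was smaller, since the mean over MOL1 cells was 3.20, 3.70 and 2.67 per 1000 UMIs in control dOLCs, control vOLCs and ectopic vOLCs, and 3.20, 3.41 and 2.61 after thinning.

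The 20 myelin genes summed to 0.14 (0.13 to 0.16) in ectopic vOLCs against control dOLCs, where other mature cells also had 0.14 on the CPM scale, and to 0.04 (0.01 to 0.07) against control vOLCs. In MOL1 the first value was 0.22 with TMM and 0.24 with median of ratios scaling. Mog was at 0.28 (0.17 to 0.38) and 0.09 (-0.07 to 0.27). Fatty acid and sphingolipid genes were lower in ectopic vOLCs, with ratios of -0.47 (-0.53 to -0.40) and -0.45 (-0.54 to -0.35), against -0.41 and -0.42 in other mature cells.

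Within that list the sum is led by abundant members. Scd2, a fatty acid desaturase, had 4001, 3403 and 2244 CPM in MOL1, with log2 ratios of -0.83 (-0.93 to -0.74) and -0.60 (-0.75 to -0.45). Abca2, a lipid transporter, had 845, 674 and 413 CPM and ratios of -1.03 (-1.26 to -0.81) and -0.71 (-1.05 to -0.36). Cers2, a ceramide synthase, had 625, 889 and 861 CPM and lay the other way against control dOLCs (0.46). The median member was at -0.19 against control dOLCs, and at -0.06 once the median of genes of like transcript length was taken off. Against control vOLCs it was at -0.40, and at -0.47 with length taken off, and 11 of 13 members were below 0.

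The study named genes as lower or higher in ectopic cells, and since it chose them on these libraries they are not independent evidence of direction. All 35 genes named as lower were below 0 against control dOLCs in MOL1 and 29 of 34 past the filter against control vOLCs. Of these, 7 and 3 were at least 2-fold lower, beside 4.06% and 2.01% of all genes in the same comparisons. The sums of -0.64 (-0.68 to -0.60) and -0.46 (-0.52 to -0.40) stand beside -0.73 and -0.62 in other mature cells. Tppp, a microtubule-binding protein of oligodendrocytes, had 368, 315 and 151 CPM, with ratios of -1.29 (-1.67 to -0.93) and -1.07 (-1.60 to -0.52). Neat1, a nuclear long non-coding RNA, had 411, 611 and 123 CPM, with ratios of -1.73 (-2.14 to -1.35) and -2.31 (-2.79 to -1.84).

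Long transcripts were lower in ectopic vOLCs. Over 3428 genes of MOL1 with a length, Spearman's rho between log2 ratio to control dOLCs and transcript length was -0.45. It was -0.34 over 1840 genes against control vOLCs and -0.03 over 2770 for control vOLCs against control dOLCs. These are values across genes of the same libraries, not replicates. The median of the genes named as lower was -0.67, and -0.35 once genes of like length were taken off.

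Of the 8 genes named as higher, 7 had UMIs in MOL1 and passed the filter, and these 7 were above 0 against each control. Of them 4 and 3 were at least 2-fold higher, beside 0.512% and 3.97% of all genes. Tubb3, a tubulin best known from neurons, had 5.79, 25.2 and 90.7 CPM, which is 5, 4 and 47 UMIs, with a log2 ratio of 3.97 (2.65 to 5.66) to control dOLCs and 1.85 (0.40 to 3.78) to control vOLCs. The 8 neuron markers had 5 UMIs together in MOL1 of ectopic vOLCs, with a ratio to control dOLCs of -0.85 (-2.66 to 0.69), which is too few to tell whether they moved. Polr2f, an RNA polymerase subunit whose gene neighbours Sox10, had 186, 183 and 475 CPM, with ratios of 1.35 (1.06 to 1.64) and 1.38 (0.82 to 1.99). Magi1, a junction scaffold, had 61.4, 56.7 and 147 CPM and ratios of 1.26 and 1.37. The sum over the list was 0.70 and 0.69 in MOL1 and 0.67 and 0.81 in other mature cells.

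The genes with the highest or lowest ratio in MOL1 were chosen as its extremes, so a ratio nearer to 0 in other mature cells is no result. Tulp3, of ciliary transport, had 20.8, 18.9 and 73.3 CPM and a ratio of 1.81 (0.97 to 2.71) to control dOLCs, against -0.27 in other mature cells. Enpp6, an enzyme of newly formed oligodendrocytes, had 74.1, 81.9 and 15.4 CPM and a ratio of -2.26 (-3.54 to -1.20), against -0.83. The interval of other mature cells lay outside that of MOL1 for these 2 genes. It overlapped for the next 2. Kcnq1ot1, an imprinted long non-coding RNA, had 113, 94.5 and 27.0 CPM and a ratio of -2.07 (-2.99 to -1.26), against -1.21. Hddc3 had 71.8, 56.7 and 11.6 CPM and a ratio of -2.63 (-4.13 to -1.43), against -1.83. Each rests on 3 to 98 UMIs in a library, and the difference between MOL1 and other mature cells was not tested.

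Control vOLCs against control dOLCs had its highest ratios in Gm11808 (2.10), Klk6 (1.89), Schip1.1 (1.75), Gstp1 (1.68) and Bloc1s1 (1.66). Gstp1, a glutathione transferase, had 337, 1078 and 571 CPM in MOL1. Its ratio of 1.68 (1.40 to 1.95) stood beside 1.48 in other mature cells. The 5 lowest, among them Sox2 with 53 UMIs in control dOLCs, had 1 UMI each in control vOLCs.

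**Figure D5:**
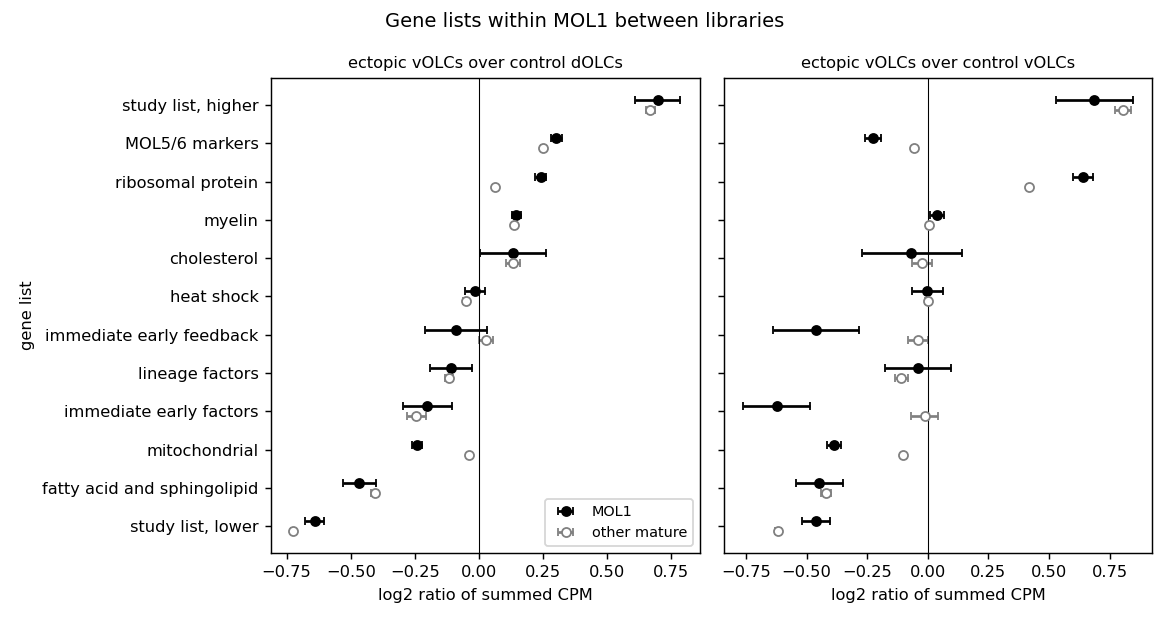
Log2 ratio of the summed CPM of 12 gene lists within MOL1 (filled) and within other mature cells (open), for ectopic vOLCs against control dOLCs (left) and against control vOLCs (right). Bars are 95% exact binomial intervals that cover counting error only, and immediate early factors of ectopic vOLCs lie at -0.20 to control dOLCs and -0.62 to control vOLCs in MOL1.

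Mitochondrial and ribosomal transcripts differed between the libraries within MOL1 and stand beside all values above. The 13 mitochondrial genes were at -0.24 and -0.39 in ectopic vOLCs against control dOLCs and control vOLCs, where other mature cells had -0.04 and -0.10. The 84 ribosomal protein genes were at 0.24 and 0.64, where other mature cells had 0.06 and 0.42. The median over all genes past the filter was -0.02 and 0.10. The part of these shifts in the other ratios was not tested.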

How the data were processed

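The authors deposited raw UMI counts from Cell Ranger, aligned to mm10 per the labels, and an annotation of cells. The submitters' notes name Cell Ranger 2.1.1 and Seurat 3, the paper's methods another Cell Ranger release. Per the methods, cells with over 200 and under 3000 genes and at most 15% mitochondrial counts were kept, normalised by sctransform, clustered on 30 principal components at resolution 0.6 and named by label transfer. The table of 27998 genes and 10081 barcodes held 0 columns of other samples. The 4 single-nucleus samples were not analysed here, nor was a further set of libraries that, per the labels, the authors left out. Mitochondrial percentages were recomputed from the counts over 13 genes.

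The members and gene lists were chosen with earlier results of these data known. UMI counts of the cells of each cluster and library were added up and scaled to counts per 1000000 (CPM). Ratios are given with exact conditional binomial intervals, shares with Clopper-Pearson intervals, at 95%. A ratio to 0 UMIs is a bound from 3 counts. Genes between libraries needed 50 UMIs in both together and a UMI in 10% of the cells of one. With 1 library per condition no test was run. The log2 ratio that counts as past the fold is 1. Named genes are the immediate early lists, the 15 highest and 10 lowest ratios of MOL1 ranked by the library nearest to 0, the 10 highest and 10 lowest of ectopic vOLCs whose sign is shared by both controls, 5 and 5 of control vOLCs, and from each other list 4 leading members and any past the fold. Eya2, Tppp and Tubb3 are genes the study singled out. Neighbours used counts scaled per cell, genes seen in at least 10 cells and 15 neighbours within a library. Transcript lengths came from GENCODE, promoters from RefSeq, GRCm38.p6. No doublet was left out: Scrublet called 13 of 9291 cells, too few to have worked, so the 6% of barcodes with the highest scores served as an alternative. Steps were tested on simulated data. Tools were scanpy 1.11.5, scikit-learn 1.9.0, scipy 1.17.1, numpy 2.4.6 and pandas 2.3.3 in Python 3.11.15, matplotlib 3.10.9, and edgeR 4.0.16 (TMM factors only) in R 4.3.3.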

Additional observations from a re-analysis of the deposited data

How the results depend on the processing

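No paired analysis was possible because the 3 conditions have a single library each. Depth limits control vOLCs most, with 34 MOL1 cells. Intervals cover counting error, not the spread between mice, and no value here has a replicate. The filter does not enter summed ratios. Of 171 recomputed main values 114 stayed within the counting interval or, for counts of genes, near the first count, and the cause of the other shifts was not tested. 

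For MOL1 against other mature cells the 48 immediate early genes went in control dOLCs from 0.96 to 1.06 as a mean of cell CPM and to 1.14 after thinning, and in ectopic vOLCs from 0.87 to 0.99 after thinning. Heat shock genes of control dOLCs went from 0.16 to 0.21 under both. Myelin genes went in control dOLCs from -0.081 to -0.095 as a mean and to -0.039 against MOL5/6 only, in control vOLCs from -0.11 to -0.060 at 10% mitochondrial counts and to -0.050 against MOL5/6, and in ectopic vOLCs from -0.073 to -0.092 with TMM and to -0.046 against MOL5/6. Klk6 reversed against MOL5/6, to 1.18, 1.65 and 0.54 from -1.10, -1.36 and -1.65. After thinning Xpnpep1 (-1.17 to 0.76) and Uba3 (-1.11 to 0.41) of control vOLCs and Pold4 of ectopic vOLCs (-2.05 to 0.17) reversed. The count of genes at least 2-fold lower in every library went from 1 to 0 against MOL5/6, and leaving out a library in turn gave 1 to 10, with 10 without control dOLCs and 2 without control vOLCs. Genes 2-fold higher went from 10 to 8 against MOL5/6 and were 10 to 14 without a library, with 14 without control dOLCs and without control vOLCs. The alternatives for these 2 counts were added after seeing the data.

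Within MOL1, ectopic vOLCs against control dOLCs, immediate early genes went from -0.16 to -0.065 with median of ratios, and to -0.56 with control vOLCs as the control. Heat shock genes went from -0.016 to 0.054 (TMM) and 0.077 (median of ratios). Myelin genes went from 0.14 to 0.22 (TMM), 0.24 (median of ratios), 0.19 (mean of cells), 0.18 (thinned), 0.12 (10% mitochondrial) and 0.037 (control vOLCs). Fatty acid genes went from -0.47 to -0.40 (TMM) and -0.37 (median of ratios), and the genes named as lower from -0.64 to -0.57 (TMM), -0.55 (median of ratios), -0.60 (10% mitochondrial) and -0.46 (control vOLCs). Genes named as higher went from 0.70 to 0.79 (median of ratios). With control vOLCs the MOL5/6 markers reversed from 0.30 to -0.23 and cholesterol genes from 0.13 to -0.068, and after thinning Zfyve21 reversed from 1.16 to -0.080. With length taken off, median genes went from -0.15 to -0.10 (heat shock), -0.19 to -0.059 (fatty acid) and -0.67 to -0.35 (named as lower). The 18 higher genes of 3519 became 32 (median of ratios) and 28 (mean of cells) of the same 3519. They became 9 of 939 (thinned), 75 of 1889 (control vOLCs) and 548 of 12302 (no filter). The 143 lower genes of 3519 became 90 of 3519 (median of ratios), 30 of 939 (thinned), 38 of 1889 (control vOLCs) and 1337 of 12302 (no filter). The number of genes tested changed with the setting, so these counts do not compare directly. 

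The share of MOL1 in control dOLCs went from 4.17% to 5.09% of mature cells and to 3.48% at 10% mitochondrial counts. MOL1 among neighbours, all genes, went in control dOLCs from 17.8% to 14.8% (30 neighbours), 15.3% (50 components) and 7.99% (thinned), in control vOLCs from 17.1% to 12.4% (30 neighbours) and 8.82% (thinned), and in ectopic vOLCs from 12.2% to 10.2% (30 neighbours) and 5.81% (thinned). Without the lists it went in control dOLCs from 11.2% to 9.70%, 9.23% and 6.94%, in control vOLCs from 10.2% to 7.25% (thinned) and in ectopic vOLCs from 8.53% to 5.73% (thinned).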

Other observations

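The barcodes that the authors' filter removed were read for the leading genes of MOL1. The 388, 114 and 288 removed barcodes of control dOLCs, control vOLCs and ectopic vOLCs had 128, 136 and 123 CPM of Fos, between the level of other mature cells and that of MOL1. Their Hspa1a was at 52.4, 66.2 and 57.2 CPM, also between other mature cells (36.4, 35.5 and 28.9) and MOL1. They had median depths of 10333.5, 9289.5 and 11305 UMIs and median mitochondrial shares of 4.59%, 5.62% and 4.25%. No cluster is given for them, so their cell types are not known here.

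Eya2, a transcriptional co-activator that the study singled out, had 31.3 and 31.5 CPM in MOL1 of the controls and 1.93 CPM, which is 1 UMI, in ectopic vOLCs. Its log2 ratio to control dOLCs was -4.02 (-9.37 to -1.42) in MOL1 and -4.98 in other mature cells. Gm10260 had 60 and 13 UMIs in MOL1 of the controls and 0 in ectopic vOLCs. It was thus at 69.5 and 81.9 CPM in the controls and not seen in 518237 UMIs.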
